A study of Mus musculus with 12 samples.

Results

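The protein kinase C family was followed in embryonic mouse retina through 8 isoform genes: Prkca, Prkcb, Prkcd, Prkce, Prkch, Prkcq, Prkci and Prkcz. They were taken by gene name from 19954 listed genes, and their read counts were examined in all 12 libraries of both sexes. The family was chosen by the Prkcq read counts, already known to be low in the mutant libraries of these data, so the genotype values of the isoforms are a description, carry no test and support nothing further.

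The study compared RNA of retinas at E15.5 (embryonic stage) between wild type embryos and embryos with Six3-Cre and floxed Tbr2 alleles (Tbr2f/f;Six3-Cre), here called mutants. Six3-Cre drives the recombinase in the early eye field, so the deletion is not restricted to ganglion cells. Tbr2, listed under the symbol Eomes, is a T-box transcription factor needed for intrinsically photosensitive retinal ganglion cells (ipRGC). Wild type males, mutant males, wild type females and mutant females had 3 libraries each, numbered 4, 5 and 6, all of C57BL/6 strain. Each library came from a pool of 12 retinas collected over several litters, so errors and p-values measure the spread between pools and not between embryos.

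Protein kinases C are serine and threonine kinases that act downstream of phospholipase C. The conventional isoforms (Prkca, Prkcb) need calcium and diacylglycerol, the isoforms of the calcium-independent class (Prkcd, Prkce, Prkch, Prkcq) respond to diacylglycerol alone, and the atypical isoforms (Prkci, Prkcz) respond to neither and work with Par3 and Par6 in cell polarity. In the adult retina Prkca protein is a classical marker of rod bipolar cells, and Prkcq, which encodes protein kinase C theta, is best known from T cells, platelets and skeletal muscle.

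Libraries held 18514607 to 27072825 counts. All 10 retina markers examined were detected in every library, with a summed level of 3189 to 4027 CPM (reads per 1000000 reads counted in the library). Eomes stood at 53.4 to 76.1 CPM in the 6 wild type libraries and at 9.62 to 27.4 CPM in the 6 mutant libraries, and the groups did not overlap. Its remaining counts include reads from any part of the gene, deleted or not. The mitochondrial transcript mt-Nd6 was high in 5 libraries and low in 7, with both genotypes in either set, and lens markers ranged from 2.43 to 1663 CPM.

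The isoforms differed widely in level. On a scale per gene length and library total (FPKM, recomputed from the counts), Prkci, the iota isoform, was the highest, at a mean of 38.3 over the 12 libraries. Prkcd (delta) followed at 15.7 and Prkch (eta) at 13.4. Prkcz (zeta) at 7.37, Prkcb (beta) at 7.21 and Prkce (epsilon) at 6.30 formed a middle group. Prkca (alpha) at 1.68 and Prkcq (theta) at 1.07 were the lowest.

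Neighbours in this order were compared within libraries by an exact two-sided sign-flip permutation test of the log2 FPKM difference, with p-values adjusted over the 7 pairs. Prkci over Prkcd, Prkcd over Prkch, Prkch over Prkcz and Prkce over Prkca held in 12 of 12 libraries, each with an adjusted exact p of 0.000854, from the smallest raw p that 12 libraries allow, 0.000488. The largest of these steps in ratio of means was 3.75-fold, from Prkce to Prkca. Prkcb exceeded Prkce in 11 of 12 libraries, by 1.14-fold (adjusted exact p = 0.00205). This step and that of Prkcd over Prkch rest on the listed gene lengths. Mean CPM ran the other way, at 39.4 for Prkce and 24.0 for Prkcb, and at 47.4 for Prkch and 44.9 for Prkcd. An error in a listed length would be shared by all libraries, so the test cannot measure it. Prkcz and Prkcb could not be ordered, since Prkcz was higher in 7 of 12 libraries (exact permutation p = 0.413).

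The last step, Prkca over Prkcq, held in 10 of 12 libraries (adjusted exact p = 0.00228), but this value includes the mutant libraries in which Prkcq is low by choice. In the 6 wild type libraries alone the 2 genes stood at means of 1.80 and 1.49 FPKM, Prkca was higher in 4 of 6, and the exact permutation p was 0.125. Prkcb over Prkce gave an exact permutation p of 0.0938 there. The same order of means was found in the wild type libraries, but 6 libraries cannot give an exact p under 0.0312, and none of the 7 pairs passed after adjustment (smallest adjusted p 0.0547).

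**Figure D1:**
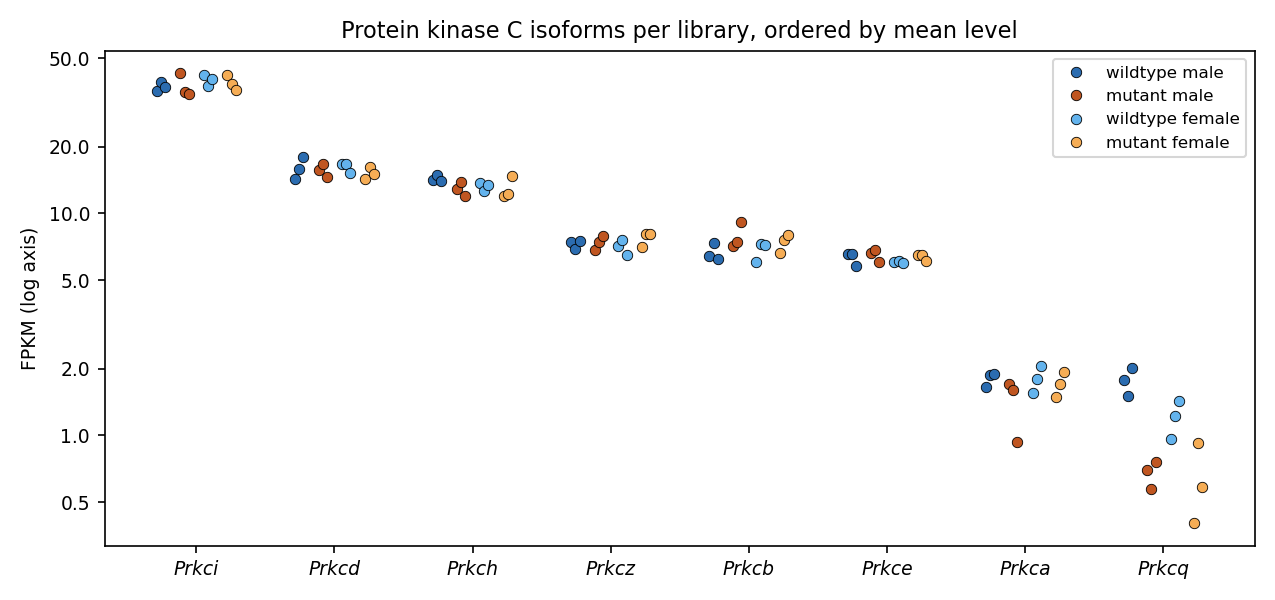
Level of each protein kinase C isoform per library in FPKM on a log axis, with 1 point per library, coloured by genotype and sex, and isoforms ordered by their mean over 12 libraries. Prkci, at a mean of 38.3, lies above all others, Prkcz and Prkcb share a level near 7, and the mutant points of Prkcq lie lowest.

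Prkcq was the isoform that separated the genotypes. It lies on chromosome 2 at 11172113 to 11301226 (mm10, plus strand). Wild type males 4, 5 and 6 had 136, 153 and 190 Prkcq reads, which is 7.07, 5.98 and 7.98 CPM. Mutant males 4, 5 and 6 had 58, 44 and 56 reads, or 2.76, 2.28 and 3.02 CPM. The lowest wild type male library was thus well above the highest mutant male library.

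In females the separation was narrower. Wild type females 4, 5 and 6 had 104, 96 and 114 Prkcq reads, or 3.84, 4.88 and 5.69 CPM. Mutant females 4, 5 and 6 had 36, 86 and 48 reads, or 1.60, 3.67 and 2.33 CPM. The groups did not overlap, but mutant female 5 lay only 4.34% below wild type female 4.

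Over both sexes the mean Prkcq level was 5.91 ± 1.48 CPM in wild type (SD, n = 6) and 2.61 ± 0.714 CPM in mutants (SD, n = 6), a 2.26-fold lower level. The log2 fold change estimated by edgeR was -1.15 (SE 0.20) over both sexes, -1.37 (SE 0.21) in males and -0.92 (SE 0.31) in females. By size, the first of these ranked 52 among 15467 tested genes. Leaving out each library in turn gave -1.34 (without mutant female 5) to -1.07 (without mutant female 4). Among the 5 high-mt-Nd6 libraries it was -1.34, among the 7 low ones -1.17, and without the 3 libraries highest in the lens crystallin Cryaa it was -1.32. Mutant female 5 is 1 of these 3, so this fit is not separate from the one without that library. In a whole-retina pool, fewer cells that express a gene and less RNA per cell cannot be told apart.

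**Figure D2:**
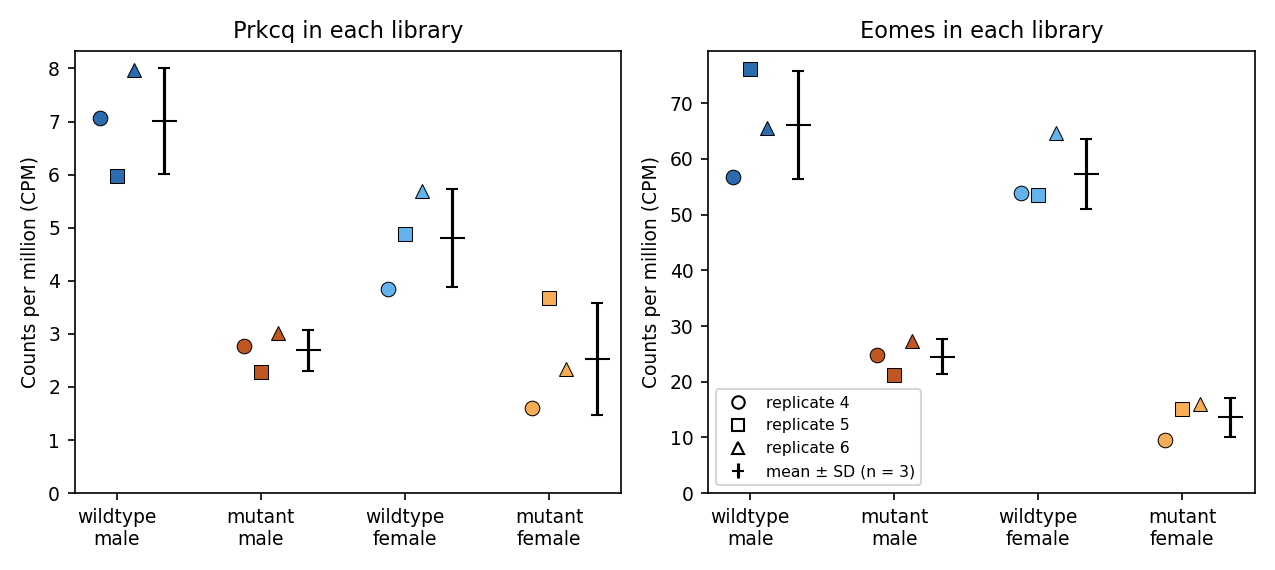
CPM of Prkcq (left) and of the targeted gene Eomes (right) in each library, by genotype and sex, with marker shape for the replicate number and bars for mean ± SD (n = 3). The 6 mutant libraries of Prkcq sit between 1.60 and 3.67 CPM and the 6 wild type libraries between 3.84 and 7.98 CPM, and Eomes shows no overlap either.

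How such values stand against the other genes was read from counts of called genes. With edgeR's quasi-likelihood test and Benjamini-Hochberg adjustment at 0.05, the comparison of both sexes called 4 genes, 0.0259% of those tested. Prkcq was not among them, none of the 8 isoforms was, and 1 of the 8 (Prkcq) had an unadjusted p under 0.05. DESeq2 called 15 genes, 0.097%, and edgeR with a term for the mt-Nd6 set called 9 genes, 0.0582%, and Prkcq was among both. It was also called in 1 of 12 fits that left out a library, the one without mutant female 5. Lower mutant levels with no overlap within either sex were found for 0.239% of genes and higher ones for 0.155%, and Prkcq was the only isoform among them. Since the rule used this contrast, nothing is read from these counts.

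In males 0% of 14945 genes passed in edgeR. Without adjustment 210 genes had p under 0.05, and DESeq2 called 6 genes, Prkcq among them, and limma voom 0. In females edgeR called 1 gene, 0.00669%, and a block for the replicate numbers gave 2, or 0.0134%, which were Eomes and Irx1. No isoform was among the genes called in females by either fit. For both sexes, the authors' deposited table gave Prkcq a log2 fold change of -0.51 and an adjusted p of 0.000126, and it was 1 of 15 genes under 0.05. The authors' deposited table of males gave -0.60 with an adjusted p of 0.00238, and that of females -0.24 with an adjusted p of 0.9999. DESeq2 run here on the counts gave -1.15 over both sexes, -1.38 in males and -0.91 in females. The authors' sizes are thus not on the same footing as those given here, and the cause was not tested. None of the other 7 isoforms was under 0.05 in any of the authors' deposited tables, and these tables share their samples with the counts used here.

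The other 7 isoforms lay close to no difference over both sexes, from -0.22 (Prkca) to 0.17 (Prkcb) in log2 fold change, with 3 higher and 4 lower in mutants. Their wild type and mutant libraries overlapped for all 7 over the 12 libraries. Such values with their errors do not show that these isoforms stayed the same.

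Among the conventional isoforms, Prkca stood at 13.9, 15.7 and 16.0 CPM in wild type males and at 14.3, 13.4 and 7.89 CPM in mutant males 4, 5 and 6. It stood at 13.1, 15.04 and 17.3 CPM in wild type females and at 12.5, 14.4 and 16.2 CPM in mutant females. A single library, mutant male 6, was low, and it was also the library with the fewest detected genes, 16903. The log2 fold change of Prkca was -0.22 (SE 0.14) over both sexes and -0.35 (SE 0.23) in males. Without mutant male 6 these became -0.11 and -0.13, so part of the difference rested on that library, and its sign did not.

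Prkcb, the isoform next to Prkca in domain structure, leaned the other way. It had 21.5, 24.5 and 20.8 CPM in wild type males and 23.7, 24.8 and 30.3 CPM in mutant males. In females it had 20.2, 24.3 and 24.0 CPM in wild type and 22.1, 25.3 and 26.6 CPM in mutants. The groups overlapped in both sexes, and the highest value was again that of mutant male 6. The log2 fold change was 0.17 (SE 0.09) over both sexes, -0.01 among the 5 high-mt-Nd6 libraries and 0.28 among the 7 low ones. Without mutant male 6 it was 0.11 over both sexes, and in males it went from 0.24 to 0.13.

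In the calcium-independent class, to which Prkcq belongs, its 3 relatives differed little. Prkcd, a widely expressed isoform, had a mean of 45.9 ± 3.60 CPM in wild type and 43.9 ± 2.77 CPM in mutants (SD, n = 6 each). Prkce averaged 38.6 ± 2.05 CPM in wild type and 40.3 ± 1.92 CPM in mutants. Prkch averaged 48.9 ± 2.70 CPM in wild type and 45.9 ± 4.02 CPM in mutants. Their log2 fold changes were -0.07 (SE 0.07), 0.05 (SE 0.06) and -0.10 (SE 0.07).

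Both Prkch and Prkce separated the genotypes within 1 sex. Prkch had 50.1, 52.9 and 49.4 CPM in wild type males and 45.5, 48.9 and 42.6 CPM in mutant males, with a gap of 1.03% and no overlap, while its female groups overlapped. Prkce had 37.8, 38.2 and 37.3 CPM in wild type females and 40.5, 40.5 and 38.3 CPM in mutant females, again with no overlap, while its male groups overlapped. Separation of this kind was common in 3 libraries against 3. In males 2.9% of genes were lower and 2.48% higher in mutants with no overlap, and in females 3.86% were lower and 4.23% higher.

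Of the atypical isoforms, Prkci showed the smallest difference of the 8. Prkci, which works with the Par complex at apical junctions of neuroepithelia, had 173 ± 10.5 CPM in wild type and 171 ± 16.0 CPM in mutants (SD, n = 6 each), a log2 fold change of -0.02 (SE 0.07). Prkcz had 29.3 ± 1.71 CPM in wild type and 30.9 ± 2.23 CPM in mutants, a log2 fold change of 0.07 (SE 0.06). The 12 libraries ranged from 154 to 192 CPM for Prkci and from 26.6 to 33.1 CPM for Prkcz, with both genotypes near either end of the Prkci range.

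**Figure D3:**
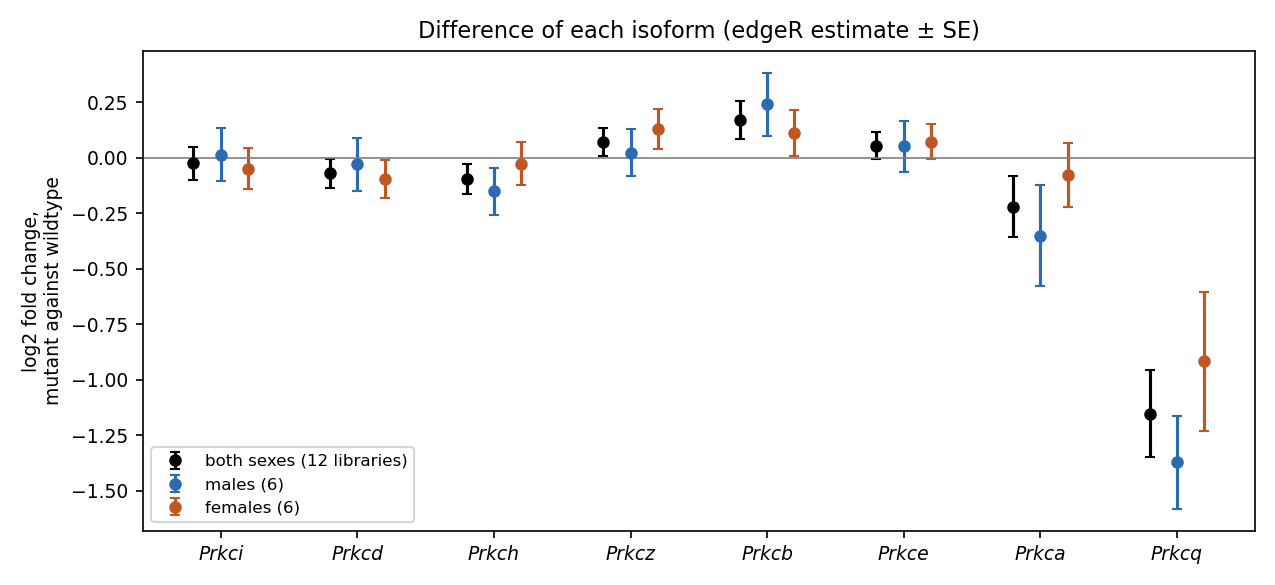
Log2 fold change of mutant against wild type for each isoform (edgeR estimate, bars for its SE), over both sexes, in males and in females. Prkcq lies at -1.15 over both sexes, while the other 7 isoforms lie between -0.22 and 0.17.

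Prkcq was a small part of the family's total. It made up 1.62% ± 0.425 of the summed isoform FPKM in wild type and 0.730% ± 0.200 in mutants (SD, n = 6 each). The summed FPKM of the calcium-independent class was 37.5 ± 1.42 in wild type and 35.4 ± 1.88 in mutants, with overlapping ranges of 36.0 to 39.7 and 33.1 to 38.0. The conventional sum was 8.57 ± 0.705 in wild type and 9.21 ± 0.710 in mutants. The atypical sum was 45.7 ± 2.08 in wild type and 45.6 ± 3.18 in mutants.

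Whether the isoforms differed between the sexes was asked in wild type retinas. The family was not chosen by this contrast, but the wild type Prkcq values in it were also part of the genotype contrast that chose the family. None of the 8 was called by edgeR and none had an unadjusted p under 0.05, against 0.00647% of genes called, which was the single gene Xist. DESeq2 called 2 genes in this contrast and limma voom 1, none of them an isoform, and with limma voom 1 of the 8 isoforms had an unadjusted p under 0.05. Prkcq had the largest estimate of the 8, with 7.01 ± 1.0003 CPM in males and 4.80 ± 0.928 CPM in females (SD, n = 3 each). Its female minus male log2 difference was -0.52 (SE 0.26), with an edgeR adjusted p of 0.99997. The 2 wild type groups of Prkcq did not overlap, the lowest male at 5.98 CPM lying above the highest female at 5.69 CPM. Prkch separated likewise, at 49.4 to 52.9 CPM in males and 44.9 to 48.5 CPM in females, so 2 of 8 isoforms were lower and 0 of 8 higher in females with no overlap. Over all genes tested, 6.09% were lower and 3.95% higher in this way. The other 7 differences ran from -0.09 (Prkch) to 0.13 (Prkci).

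The Prkcq genotype difference was larger in size in males than in females, and the difference between the sexes was 0.46 (SE 0.38) on the log2 scale. It depended on single mutant female libraries: without mutant female 5 it was 0.09 and without mutant female 4 it was 0.70. Without the 3 libraries highest in Cryaa it was 0.07, but mutant female 5 is 1 of these 3. For the interaction of genotype and sex, edgeR called 0% of genes and left 267 with p under 0.05 before adjustment. Both DESeq2 and limma voom called 0 as well.

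Markers of the cell types best known for Prkcq were measured beside it. Of 8 T cell markers 5 were measured, and their summed level was 4.66 to 5.77 CPM in wild type and 3.76 to 6.41 CPM in mutants. Most of it was the kinase gene Lck, at a mean of 3.12 CPM, while Cd8a and Zap70 were at 0 in at least 1 library. The markers Cd3d, Cd3e and Cd3g were not among the 19954 listed genes. Skeletal muscle markers summed to 6.80 to 9.85 CPM in wild type and 7.81 to 10.3 CPM in mutants over 8 of 10 markers, with Myod1, Ckm and Myl1 at 0 in at least 1 library. Platelet markers summed to 18.1 to 25.4 CPM in wild type and 16.1 to 33.1 CPM in mutants over 4 of 5, mainly from Gp1bb at a mean of 18.2 CPM, and Ppbp was at 0 in at least 1 library. All 3 sums overlapped between the genotypes. The part of these cell types in the Prkcq difference was not tested.

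Of 6 ipRGC markers, edgeR called only Eomes, the deleted gene, over both sexes, and the other 5 had adjusted p-values of 0.148 (Irx1) to 0.918 (Opn4 and Adcyap1). DESeq2 also called Irx1, Tbx20 and Igf1. With the term for the mt-Nd6 set, edgeR also called Tbx20 and Igf1. Among the edgeR fits that left out 1 library, only the one without mutant male 6 added a marker, Irx1. Before adjustment, 5 of the 6 markers, the deleted gene Eomes among them, had an edgeR p under 0.05, against 2.92% of all genes tested. Without Eomes itself, the 5 markers were Opn4, Tbx20, Irx1, Igf1 and Adcyap1. They summed to 53.2 to 88.0 CPM in wild type and 33.9 to 47.4 CPM in mutants, with no overlap. Over the 12 libraries only Tbx20 of the 5 was without overlap by itself. Irx1 and Igf1 were so within each sex, and Opn4 and Adcyap1 overlapped. Of all genes tested, 0.394% were without overlap within both sexes in the same direction. The list was chosen with earlier results of these data known, so nothing further is read from these counts or from the gap between the sums. Tbx20, a T-box factor, had means of 12.7 CPM in wild type and 6.03 CPM in mutants and Igf1 of 28.0 and 13.6 CPM, both with an edgeR adjusted p of 0.223, while the melanopsin gene Opn4 was low in both, at 1.61 and 1.005 CPM. The part of these cells in the Prkcq difference was not tested. Within a genotype, Prkcq and Eomes levels were not shown to go together. Over 6 wild type libraries Pearson's r was 0.421 (exact permutation p = 0.410) and Spearman's rho was 0.657 (exact permutation p = 0.175). Over 6 mutant libraries r was 0.417 (exact permutation p = 0.421) and rho was 0.371 (exact permutation p = 0.497), and both r had an adjusted p of 0.421. Without the 2 libraries farthest from the median of Eomes, r was 0.621 in wild type and -0.37 in mutants, so the mutant value rested on those libraries.

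The genes whose profile over the 12 libraries lay nearest to that of Prkcq were sought among 13700 genes of at least 1 CPM. Nearness was the root mean square difference of centred log2 CPM, with a median of 0.694 over all genes. The nearest was Cacng3, an auxiliary subunit of AMPA receptors, at 0.319, followed by Synm, the gene of the filament protein synemin, at 0.380. Among the nearest 5 were also Rgs4, a regulator of G protein signalling, at 0.403, and Lrfn5, a synaptic adhesion gene, at 0.436. Cacng3 averaged 8.25 ± 1.93 CPM in wild type and 4.98 ± 1.70 CPM in mutants, and Synm 73.4 ± 9.35 and 47.6 ± 9.04 CPM (SD, n = 6 each).

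All of the nearest 5 genes had lower means in mutants, which nearness to Prkcq favours. The list was not stable, since as few as 2 of the 5 remained when mutant male 5 was left out. Eomes ranked 16 at 0.472. The nearest isoform was Prkca at rank 718 with 0.626. A gene with the same level in all libraries would stand at 0.672, the spread of Prkcq itself, and that spread includes the genotype difference for which the family was picked, so nothing is read from the ranks of the isoforms.

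Genes that feed or receive the signal were examined in 8 lists with 80 names, of which 75 genes were tested. EdgeR called 0 of 75 over both sexes, against 0.0259% of all genes, and 3 of 75 had an unadjusted p under 0.05, or 4% against 2.92% of all genes tested. DESeq2 and limma voom called 0 of these genes too. The median log2 fold change was 0.03, against -0.01 over all genes tested, with 45 higher and 30 lower. The 3 were Plcb4, a phospholipase C known from melanopsin phototransduction, at -0.19, the anchor gene Akap12 at 0.13, and Ppp1r14c, a phosphatase inhibitor that protein kinase C activates, at -0.65. They are named for their unadjusted p alone, and their number was near the share in all genes.

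The 16 genes of diacylglycerol production (Gq-type G proteins and phospholipases C) had a median of 0.06, with 11 higher and 5 lower. The 9 tested diacylglycerol kinases, which remove the lipid, had a median of -0.03. The 10 genes of kinase maturation and removal had a median of 0.01. Among them Phlpp1, a phosphatase that acts on the hydrophobic motif of the kinases, separated the genotypes within both sexes, at 92.5 ± 4.44 CPM in wild type and 99.6 ± 1.93 CPM in mutants (SD, n = 6 each), without passing the test.

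The 12 anchors and polarity partners, which include the Par3 and Par6 genes that bind atypical isoforms, had a median of 0.08, with 10 higher and 2 lower. The 9 substrates, among them Marcks and Gap43, had a median of 0.03. The 8 other diacylglycerol receptors had a median of 0.01, and the 4 tested partners of protein kinase C theta in T cells a median of 0.00. No gene of these 4 lists was called.

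The 7 relatives of the family had a median of -0.04. Prkd1, a protein kinase D activated by protein kinases C, separated the genotypes within both sexes, without passing the test. It stood at 22.2 ± 2.07 CPM in wild type and 20.7 ± 1.34 CPM in mutants (SD, n = 6 each). Over the sexes together its ranges overlapped, at 20.2 to 25.8 and 19.6 to 22.6 CPM. With Phlpp1 this made 2 of the 75 list genes, or 2.67%, against 0.394% of all genes tested. The difference between these shares was not tested.

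**Figure D4:**
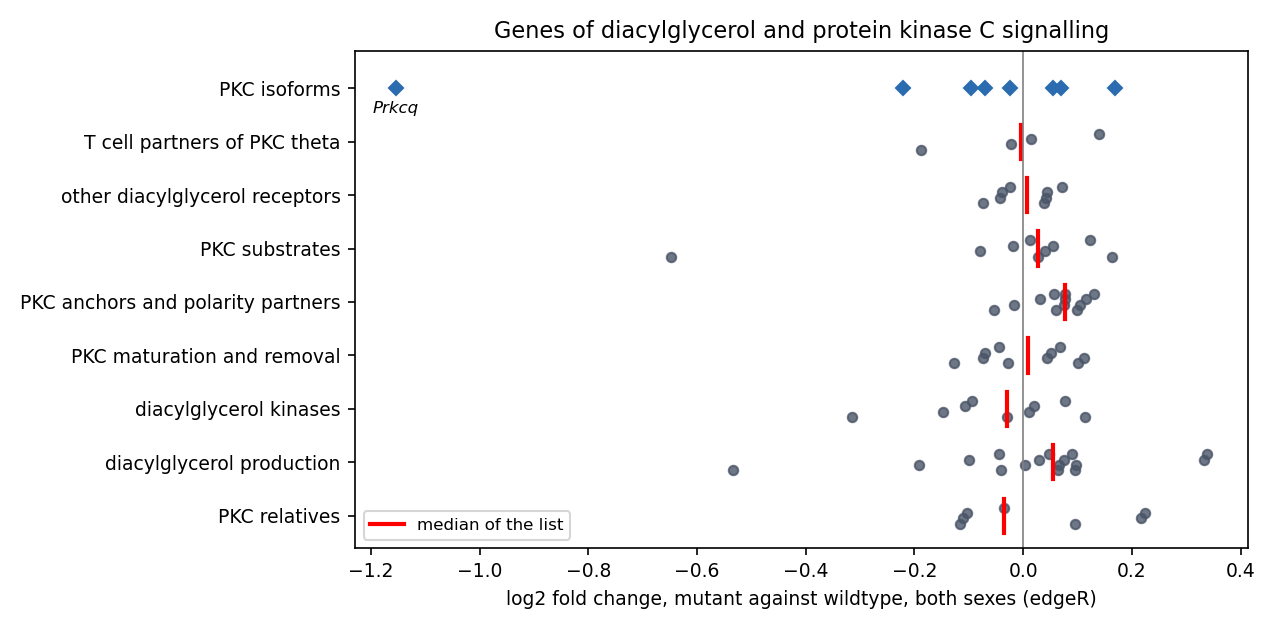
Log2 fold change of mutant against wild type over both sexes for each tested gene of 8 signalling lists, with the isoforms on the top line and a red bar for the median of each list. List medians lie between -0.04 and 0.08, and Prkcq lies alone at -1.15.

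Genes beside Prkcq on chromosome 2 were also examined. Within 1 Mb on either side 12 genes were listed and 7 were tested, and none was called by edgeR, DESeq2 or limma voom over both sexes, with 0 of 7 at an unadjusted edgeR p under 0.05. Their log2 fold changes ran from -0.26 (Itga8) to 0.29 (Itih5), and none separated the genotypes within both sexes. The neighbours Pfkfb3, a glycolytic regulator, and Rbm17, a splicing factor, stood at 0.00 and -0.01. By the reference annotation 3 provisional gene models overlap Prkcq, 1 of them on the opposite strand, and none of the 3 had counts analysed here.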

How the data were processed

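CASAVA, STAR 2.5 (mm10), HTSeq 0.6.1 and DESeq2 made the base calls, alignments, gene counts and the authors' comparisons, per the submitters' processing notes. For the counting, neither the annotation release nor the use of strand is given in the sources used here, so reads of overlapping genes on opposite strands cannot be told apart. Per the file headers, the authors deposited raw read counts, FPKM values, a normalised signal and their own comparisons. The deposited signal columns equal the count divided by 1 constant per library. The deposited log2 fold changes and p-values are the authors' own and entered no test here. Columns of per-sample values that match no sample numbered 0.

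The isoforms and the gene lists were chosen with earlier results of these data known. CPM was the deposited count over the library total, without TMM scaling, and FPKM was recomputed from counts, the listed gene length and that total. Tests used edgeR 4.0.16 (R 4.3.3) with TMM, filterByExpr, the two-sided quasi-likelihood test and Benjamini-Hochberg adjustment over all tested genes at 0.05, in the both-sexes table, with sex as a term where both sexes entered. Each SE is the fitted log2 fold change divided by the root of its F statistic. Isoform levels used a pseudocount of 0.1 FPKM. Profiles used log2 CPM with a prior count of 2. Alternatives used DESeq2 1.42.0, limma 3.58.1 (voom), other scaling and filters, the replicate block, a term for libraries over 200 CPM of mt-Nd6, and left-out libraries. The fits within mt-Nd6 sets were added after seeing the data. The fits were tested on simulated counts.

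Named genes were the isoforms, Eomes, list genes past the threshold, up to 3 genes per list with no overlap within either sex and at least 1 CPM, and the 5 nearest profiles. Other genes were chosen after their values were seen. Single values of 1 list gene and 1 of the nearest profiles are not reported here. Correlations of deviations between same-numbered wild type and mutant libraries were 0.210, 0.213 and 0.138 in females. In males they were -0.21, 0.01 and 0.292. Female libraries of unlike number gave -0.36 to 0.184. The highest of these, wild type female 6 with mutant female 4, was above the 0.138 of the libraries numbered 6. Male libraries of unlike number gave -0.37 to 0.436, a range that holds the values of the same-numbered female libraries. Pairing by number is thus not shown in either sex, and the labels do not state it.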

Additional observations from a re-analysis of the deposited data

How the results depend on the processing

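The count of genes called over both sexes was 4 and became 15 with DESeq2, 9 with the mt-Nd6 term and 0 without the 3 libraries highest in Cryaa, and leaving out 1 library gave 1 to 5. With the replicate block it was 2. In males DESeq2 called 6 genes in place of 0, and leaving out 1 library gave 0. In females the count of 1 became 10 with DESeq2 and 2 with the replicate block, and leaving out 1 library gave 0 to 2. Of the 3 libraries highest in Cryaa only mutant female 5 is female. The female fit without them is thus the fit without mutant female 5, with 0 genes. For female against male wild type, 1 became 2 with DESeq2, and leaving out 1 library gave 1 to 2. Fewer libraries entered the fits that left some out, and the cause of the other shifts was not tested. Neighbouring isoforms told apart fell from 6 to 0 in wild type libraries alone, where 6 libraries limit the exact p to 0.0312 or more. The 6 include Prkca over Prkcq, for which the mutant Prkcq values are low by choice. In wild type libraries the exact permutation p of this pair was 0.125 and that of Prkcb over Prkce 0.0938, both above that limit. Of the 5 nearest profiles, 2 to 5 remained when 1 library was left out.

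The Prkcq difference stayed negative in every fit run, from -1.46 to -0.68 over both sexes, males and females. Over both sexes the replicate block dropped Synm and Wnt4 from the 4 genes called, and in females it added Irx1. It called no isoform in any comparison. Depth limits Prkcq most, since mutant libraries held 36 to 86 of its reads.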
